A study of Homo sapiens with 12 samples.

Results

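The earliest time point of a 2,4-D exposure series in HepG2 cells was compared with untreated cells: 3 libraries from cells exposed for 10 min were set against 3 libraries from cells at 0 min, which makes 6 of the 12 libraries in the series. The libraries were chosen by their titles, and 17779 of 60612 gene rows passed the filter on low counts and were compared. HepG2 is an established human liver cancer line that keeps many hepatocyte functions, and 2,4-D (2,4-dichlorophenoxyacetic acid) is a herbicide that acts in plants as a synthetic auxin. The 0 min cells are labelled untreated, the 10 min cells received 0.001 µM 2,4-D, and cells harvested after 30 and 360 min at the same dose entered the model to estimate the spread between replicates. Every group has 3 biological replicates of this single cell line, and all cells were detached with trypsin before RNA extraction. No untreated libraries harvested at 10 min and none with a vehicle were analysed here, so exposure, elapsed time and handling cannot be told apart.

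The first minutes after a stimulus are dominated by genes whose transcription needs no new protein. The immediate early genes, among them the AP-1 subunits FOS, FOSB and JUN and the zinc finger factor EGR1, are switched on within minutes by serum, stress or mechanical handling through ERK and related kinases, and their short-lived mRNAs are lost again soon after. TXNIP encodes an arrestin-like protein that binds thioredoxin and limits glucose uptake. It is a textbook target of the glucose-sensing factors of the MondoA and ChREBP family, which bind pairs of E-box-like half-sites. Hypoxia-inducible factors (HIF) drive a further rapid programme that includes glycolytic enzymes, and they bind a short core that contains CGTG.

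The sequences upstream of 4 genes described below are shown because they carry the letters that such factors are known to read. Of the 4, only TXNIP was called in the main edgeR fit. Capitals mark only the motif named for each gene, and other motif matches are left in lower case. Each is the 250 bases before the transcription start in RefSeq's GRCh38.p14 annotation, in the direction of transcription. Capitals in TXNIP (chr1:145996580-145996829, minus strand) mark a pair of half-sites, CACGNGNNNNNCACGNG, that begins 88 bases before the start. Capitals in FOS (chr14:75278578-75278827, plus strand) and FOSB (chr19:45467746-45467995, plus strand) mark the cAMP response element half-site TGACGT, 64 and 60 bases before the start. Capitals in PFKFB4 (chr3:48556804-48557053, minus strand), a regulator of glycolysis from the hypoxia list, mark the HIF core in its form GCGTG, 166 bases before the start.
TXNIP: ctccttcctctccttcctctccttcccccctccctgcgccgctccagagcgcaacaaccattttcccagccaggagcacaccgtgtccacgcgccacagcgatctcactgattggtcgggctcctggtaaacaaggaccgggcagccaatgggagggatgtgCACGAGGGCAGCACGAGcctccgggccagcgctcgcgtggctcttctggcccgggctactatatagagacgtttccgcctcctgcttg
FOS: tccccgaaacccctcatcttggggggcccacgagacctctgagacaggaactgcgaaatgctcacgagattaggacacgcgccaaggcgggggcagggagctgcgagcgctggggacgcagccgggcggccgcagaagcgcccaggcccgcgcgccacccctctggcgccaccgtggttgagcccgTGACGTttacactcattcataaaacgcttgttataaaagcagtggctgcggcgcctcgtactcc
FOSB: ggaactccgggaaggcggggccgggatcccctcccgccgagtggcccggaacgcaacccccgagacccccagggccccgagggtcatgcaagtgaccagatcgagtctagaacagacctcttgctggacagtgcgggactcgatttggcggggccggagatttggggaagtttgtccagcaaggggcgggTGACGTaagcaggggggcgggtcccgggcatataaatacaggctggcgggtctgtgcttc
PFKFB4: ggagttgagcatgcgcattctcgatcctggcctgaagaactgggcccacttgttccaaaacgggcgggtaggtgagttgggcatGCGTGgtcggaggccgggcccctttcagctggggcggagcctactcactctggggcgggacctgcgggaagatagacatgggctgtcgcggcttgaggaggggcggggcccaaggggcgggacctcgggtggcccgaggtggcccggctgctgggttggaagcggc

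The motifs were searched on both strands in windows of 300 bases, 250 before and 50 from the start on, for every gene of the RefSeq promoter table. The paired half-sites were present in 20 of 27305 promoters (0.0732%) and in 16 of the 11088 that belong to genes tested (0.144%); this spacing was written down after the TXNIP sequence had been seen. The half-site TGACGT was present in 8.32% of all promoters, in 11.2% of those of genes tested and in 6 of the 19 immediate early promoters in the table, which were EGR1, FOS, FOSB, MAFF, NR4A3 and PPP1R15A. The HIF core (ACGTG or GCGTG, which overlaps some E-box matches) was common, with 48.4% of all promoters, 61.9% of those of genes tested and 21 of 26 hypoxia promoters. It was also present in 12 of 19 immediate early promoters, FOS and FOSB among them, and in the TXNIP promoter. A match describes letters only and was not tied to binding in these cells.

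At 10 min the transcriptome was almost where it had been in untreated cells. Over the 17779 genes the median log2 fold change was -0.0027 and the median absolute change 0.08, and 90% of genes lay between -0.45 and 0.38. Levels are given in counts per 1e6 counts (CPM), scaled by the TMM method. Among the 12501 genes whose mean log2 CPM reached 1 the median absolute change was 0.06 and 162 genes lay beyond 0.5 in either direction. With edgeR's quasi-likelihood test, 3 genes (0.0169% of those tested) passed an adjusted p of 0.05: TXNIP and DHRS2 rose and IER3 fell. At an unadjusted p under 0.05, 947 genes were higher (5.33%) and 994 lower (5.59%), and at an adjusted p under 0.1 there were 5 genes. The number of calls was 174 with DESeq2, 107 of them higher and 67 lower. It was 3 with limma voom, 25 without untreated replicate 1, 13 without 10 min replicate 2 and 1 without 10 min replicate 1. Under total-count scaling the all-gene median was -0.03, so values of single genes and lists that lie within that distance of 0 have no settled sign.

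**Figure D1:**
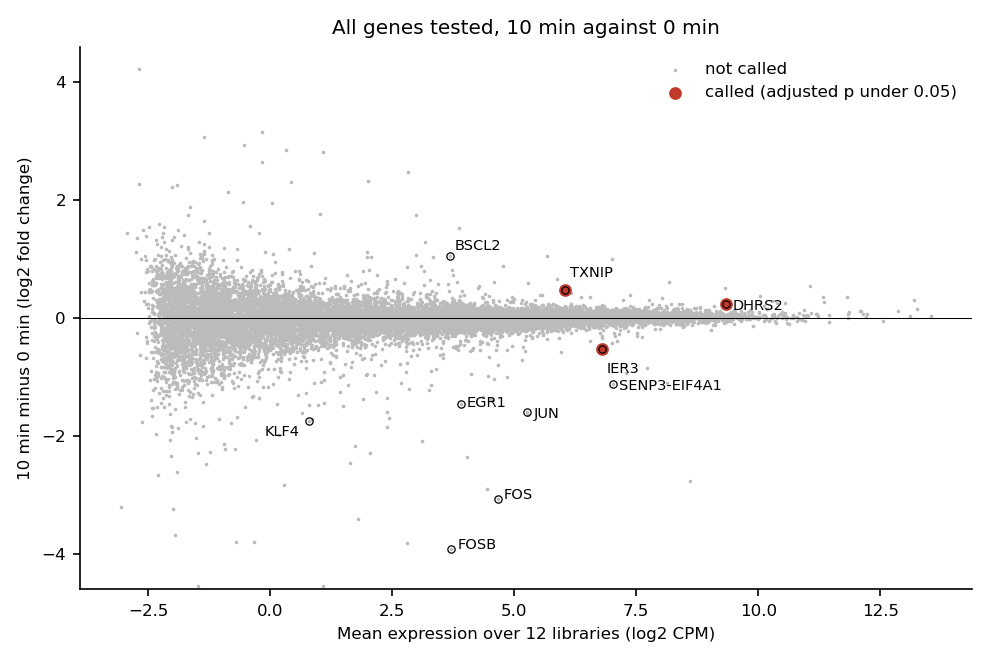
Each point is 1 of the genes tested, with mean expression over 12 libraries (log2 CPM) on the horizontal axis and the log2 fold change of 10 min against 0 min on the vertical axis; 20 genes beyond 4.6 in either direction are outside the drawn range. The 3 genes called in the main edgeR fit, in red, lie close to the main cloud. FOSB at -3.93 and FOS at -3.07 lie far below it and were not called in that fit.

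TXNIP had the smallest p of all genes. Its untreated replicates 1, 2 and 3 held 60.2, 57.3 and 53.4 CPM, and it stood at 73.8, 81.3 and 81.9 CPM at 10 min. Every exposed library thus lay above every untreated one, with a gap wider than the range within either group. TXNIP (chromosome 1, 145992435 to 145996600, GRCh38, minus strand) had a log2 fold change of 0.47 with an SE of 0.05 and rose at an edgeR adjusted p of 0.0053. The group means were 57.0 ± 3.40 and 79.0 ± 4.50 CPM (SD, n = 3). At 30 min the mean was 83.7 CPM, and the log2 fold change of 30 min against 10 min was 0.08 ± 0.05, which did not pass (adjusted p = 0.53, edgeR). The call was lost in 1 of 18 alternatives, with untreated replicate 1 as the only untreated library (0.40, adjusted p = 0.062).

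The other genes of the glucose-sensing list did not move as one. Of its 11 measured members edgeR called 1, TXNIP itself, and DESeq2 called 2, both higher. The list median was 0.02 against -0.003 for all genes. ARRDC3, an arrestin-domain relative of TXNIP, was at 12.2, 15.1 and 15.6 CPM untreated and at 19.2, 19.3 and 20.5 CPM at 10 min. Its log2 fold change of 0.46 did not pass with edgeR (adjusted p = 0.26) and passed with DESeq2 (adjusted p = 0.033). DEPP1, an autophagy-linked gene, was at 0.29, and ARRDC2, a further arrestin-domain gene, was at -0.22, both without a call. ARRDC4, which shares the family and is a known target of the same factors, was at 0.01, and the genes of the sensors themselves, MLX, MLXIP and MLXIPL, were at -0.05, -0.01 and -0.02.

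DHRS2 encodes a short-chain dehydrogenase of the mitochondria and nucleus. Its level was 544, 535 and 529 CPM in untreated replicates 1, 2 and 3 and 617, 643 and 631 CPM at 10 min, so the groups were apart although the difference was small. DHRS2 (chromosome 14, 23630115 to 23645639, plus strand) rose by 0.23 ± 0.03 on the log2 scale (adjusted p = 0.017, edgeR), and its mean was 649 CPM at 30 min and 759 CPM at 360 min. Of 18 short-chain dehydrogenase genes measured it was the only one called, and the list median was 0.02. This is the least secure of the 3 calls: 7 of 18 alternatives lost it, with an adjusted p of up to 0.16 when the 0 and 10 min groups were fitted alone. Among them were the omission of untreated replicate 2 or 3, of 10 min replicate 1 or 3, of the filter on low counts, and of both untreated replicates 2 and 3 together.

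IER3 encodes a stress-inducible membrane protein that modulates ERK signalling and cell survival. Its level was 143, 134 and 155 CPM in untreated replicates 1, 2 and 3, and 101, 99.4 and 99.8 CPM at 10 min. The exposed libraries were within 2 CPM of each other and all below the untreated ones. IER3 (chromosome 6, 30743199 to 30744554, minus strand) fell by 0.53 in log2 units, with an SE of 0.06 and an edgeR adjusted p of 0.013. Between 10 and 30 min it fell by a further 0.88 (SE 0.06, adjusted p = 2.2e-05, edgeR), to a mean of 54.1 CPM, and at 360 min its mean was 147 CPM. The antisense gene IER3-AS1 covers part of the locus, and its reads and those of IER3 may be mixed because strand use is not known. The call was lost in 3 of 18 alternatives: with replicate 1 as the only untreated library, and on omission of 10 min replicate 1 or 3, with an adjusted p of up to 0.065.

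**Figure D2:**
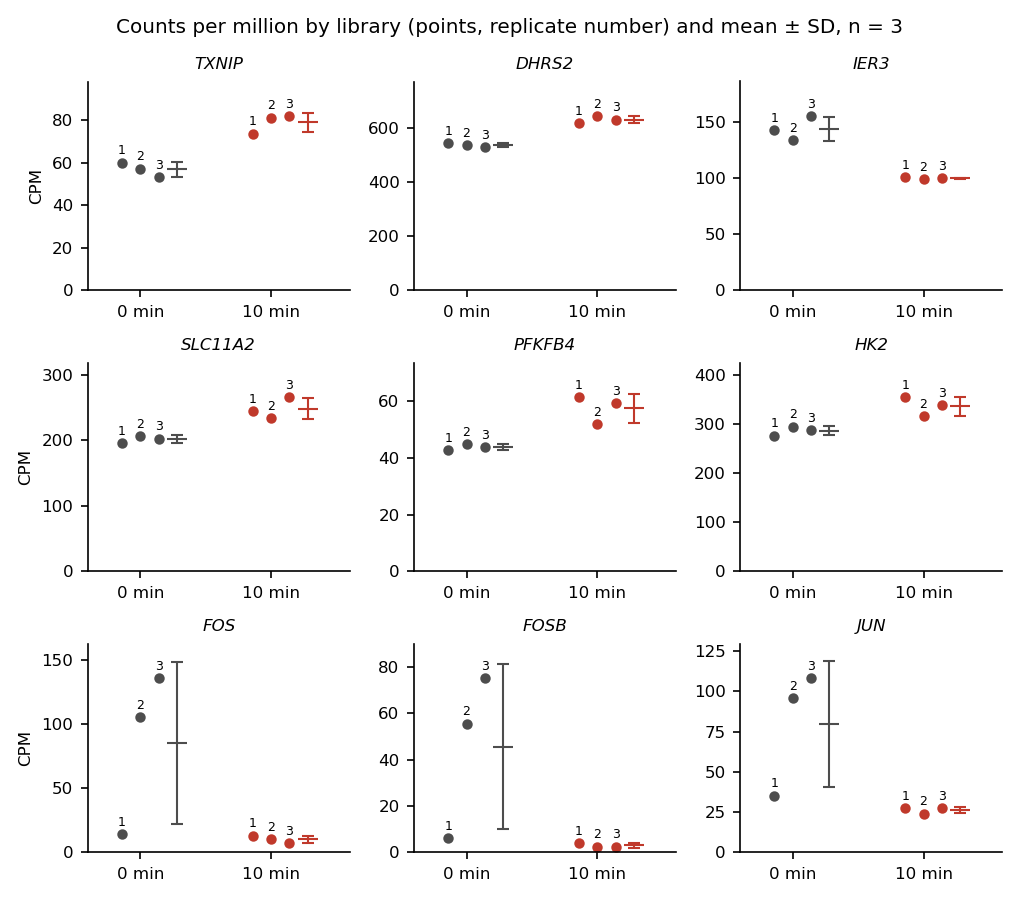
CPM of 9 genes in each untreated (grey) and 10 min (red) library, with replicate numbers above the points and the mean ± SD (n = 3) beside them; every vertical axis starts at 0. In the top row the groups are apart and tight, while in the bottom row untreated replicate 1 lies close to the exposed libraries.

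Of the lists described here, the immediate early genes were farthest from zero. Of 30 listed, 26 were measured. In its main fit edgeR called 0 higher and 1, IER3, lower, while DESeq2 called 0 higher and 12 lower. Over all 17779 genes DESeq2 called 107 higher and 67 lower. Without regard to multiple testing, 17 of the 26 were lower at p under 0.05 and 0 higher, beside 5.59% and 5.33% of all genes. In 13 members all 10 min libraries lay below all untreated ones, which was the case for 7.72% of all genes, and in 0 members above, against 7.73%. The list median was -0.38 on the log2 scale.

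The untreated libraries themselves disagreed on these genes. FOS was at 14.1, 106 and 136 CPM across untreated replicates 1, 2 and 3, and at 13.0, 10.6 and 7.10 CPM at 10 min. FOSB was at 6.11, 55.5 and 75.1 CPM untreated, and at 4.12, 2.41 and 2.51 CPM at 10 min. JUN was at 35.3, 95.7 and 108 CPM untreated, and at 27.5, 24.1 and 27.6 CPM at 10 min. In all 3 AP-1 genes untreated replicate 1 lay just above the exposed libraries, and replicates 2 and 3 lay far above them. The log2 fold changes were -3.93 ± 0.66 for FOSB, -3.07 ± 0.59 for FOS and -1.60 ± 0.29 for JUN. None of them passed in the main edgeR fit (adjusted p = 0.11, 0.12 and 0.12). Without the filter on low counts edgeR called all 3 lower with all libraries (adjusted p = 0.0233, 0.0411 and 0.0396). DESeq2 also called all 3 lower (adjusted p = 5.26e-05, 0.00217 and 0.00207). The remaining AP-1 genes of the list were closer to zero: JUNB at -0.48, FOSL1 at -0.08 and ATF3, a partner of JUN, at -0.21.

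The same order of libraries was seen outside AP-1. EGR1 was at 14.8, 34.2 and 45.8 CPM untreated and between 9.67 and 14.6 CPM at 10 min. CCN1, a matricellular protein gene induced by serum and by cell stretch, was at 22.4, 58.2 and 68.3 CPM untreated and between 17.3 and 21.9 CPM at 10 min. PPP1R15A, which reverses the block on translation during stress, was at 24.7, 45.2 and 49.8 CPM untreated and between 16.5 and 21.8 CPM at 10 min. None of these passed in the main edgeR fit, with log2 fold changes of -1.47 for EGR1, -1.38 for CCN1 and -1.04 for PPP1R15A. DESeq2 called each of them lower (adjusted p = 0.0439, 0.0142 and 0.01). The members MYC, SRF and KLF10 stood at 0.02, -0.01 and 0.04, within the range of genes at large.

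Summed over the list, the median deviation from the untreated mean was -0.30, 0.06 and 0.22 in untreated replicates 1, 2 and 3, and -0.39, -0.37 and -0.39 in the 10 min replicates. The 10 min libraries agreed within 0.02 and were the lowest, with untreated replicate 1 next to them. The median SD over the list's members was 0.28 at 0 min and 0.12 at 10 min, beside 0.09 and 0.10 over all genes. Without untreated replicate 1 the list median was -0.51 and 13 members were called lower, FOS, FOSB, JUN, EGR1, CCN1 and PPP1R15A among them. When untreated cells were represented by replicate 1 alone, the median was -0.13 and 0 members were called. In untreated replicate 1 the mitochondrial share of counts, described below, was 4.39% and in replicates 2 and 3 it was 2.61% and 2.66%. With this share as a term in the edgeR fit the values were -2.93 for FOSB, -2.20 for FOS and -1.28 for JUN, none called, the list median was -0.34, and PPP1R15A was called besides IER3 (-0.82, adjusted p = 0.0216). IER3 did not follow this order, since its 3 untreated values were all above its exposed values by a similar margin.

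Genes that ERK induces to limit its own signal, the ERK feedback genes, showed the order in part. Of 16 measured, 0 were called, and the median was -0.08. At an unadjusted p under 0.05, 5 were lower and 1 higher, beside 5.59% and 5.33% of all genes. The phosphatase gene DUSP1 was at 16.9, 48.3 and 60.6 CPM untreated and between 16.5 and 16.7 CPM at 10 min, and DUSP6, the phosphatase most specific to ERK, was at 93.9, 124 and 132 CPM untreated and between 89.0 and 90.5 CPM at 10 min. Untreated replicate 1 was again the lowest of its group in both. SPRY4, a Sprouty inhibitor of receptor signalling, was at 37.4, 35.3 and 40.5 CPM untreated and between 31.4 and 32.9 CPM at 10 min, without that gap. The log2 fold changes, -1.35 for DUSP1, -0.38 for DUSP6 and -0.23 for SPRY4, did not pass with edgeR. Without untreated replicate 1, DUSP1 (-1.71, adjusted p = 1e-05) and DUSP6 (-0.51, adjusted p = 0.005) were called by edgeR, and DESeq2 called 2 members of the list lower with all libraries.

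**Figure D3:**
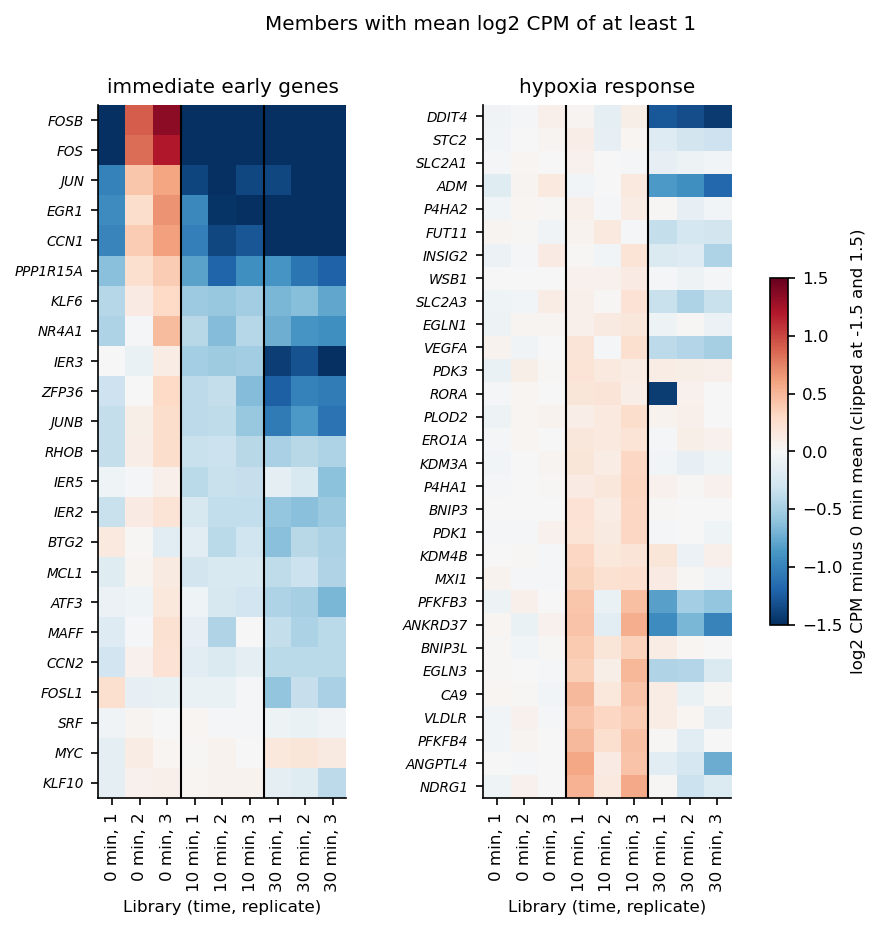
Members of the immediate early and hypoxia lists whose mean log2 CPM reached 1, in rows ordered by the 10 min log2 fold change, against the libraries at 0, 10 and 30 min; colour is log2 of CPM plus 0.1, minus the mean at 0 min, clipped at 1.5 in either direction. On the left untreated replicate 1 is blue like the 10 min libraries in the upper rows, and on the right the 10 min libraries are red in the lower rows, most weakly in replicate 2.

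The hypoxia list was the counterpart on the higher side. Of 32 measured members edgeR called 0, while DESeq2 called 12 higher and 0 lower. Over all 17779 genes tested DESeq2 called 107 higher and 67 lower. On the edgeR scale 31 had a log2 fold change above zero, and the list median was 0.19. At an unadjusted p under 0.05, 18 were higher and 0 lower, beside 5.33% and 5.59% of all genes. In 19 members all 10 min libraries lay above all untreated ones, which was the case for 7.73% of all genes. PFKFB4, a bifunctional enzyme that sets the level of a glycolytic activator, was at 42.6, 44.8 and 43.7 CPM untreated and at 61.2, 51.7 and 59.1 CPM at 10 min (0.39 ± 0.06, edgeR adjusted p = 0.11). BNIP3L, a receptor for the removal of mitochondria, was at 33.9, 32.6 and 33.8 CPM untreated and at 44.0, 38.0 and 42.7 CPM at 10 min (0.31). Both genes met the naming rule, which asks for groups that do not overlap. In both, 10 min replicate 2 was the lowest of its group. VLDLR, a lipoprotein receptor gene, BNIP3 and MXI1, a MYC antagonist, were at 0.37, 0.21 and 0.27, without overlap between groups. In its main fit edgeR called none of these, while DESeq2 called each of them higher. Without the filter on low counts edgeR called PFKFB4 higher with all libraries (adjusted p = 0.0411).

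Across the list the deviation from the untreated mean was 0.19, 0.13 and 0.25 in 10 min replicates 1, 2 and 3 and between -0.03 and 0.01 in the untreated libraries. All exposed libraries were above all untreated ones, and replicate 2 was the lowest of them. EPAS1, which encodes HIF-2 alpha and is not in the list, was at 0.17. It had 325, 330 and 315 CPM untreated and 368, 354 and 373 CPM at 10 min. It was not called by edgeR and was called by DESeq2 (adjusted p = 0.000102). Members near zero were ADM, a vasodilator peptide gene, at 0.03, SLC2A1, the glucose transporter gene, at 0.01 and DDIT4, an inhibitor of mTORC1 signalling, at -0.003. Under 16 alternatives the list median lay between 0.16 and 0.24, and without 10 min replicate 2 there were 3 members called higher.

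Glycolysis genes, which share PFKFB4 and other members with the hypoxia list, were displaced less. Of 23 measured, edgeR called 0 and DESeq2 called 5 higher, beside 107 of all 17779 genes, and the median was 0.10. At an unadjusted p under 0.05, 10 were higher and 0 lower, beside 5.33% and 5.59% of all genes. HK2, the hexokinase that commits glucose to the pathway in tumour cells, was at 276, 294 and 286 CPM untreated and at 354, 315 and 338 CPM at 10 min (0.23). PGK1, phosphoglycerate kinase, was at 506, 539 and 519 CPM untreated and at 636, 568 and 591 CPM at 10 min (0.20). The groups did not overlap in either gene, which the naming rule required of HK2. In both, 10 min replicate 2 was again the lowest exposed library. HK2 was called by edgeR with a term for mitochondrial share and without 10 min replicate 2 (adjusted p = 0.0473 and 0.028). Later enzymes such as PKM and ALDOA were at 0.01 and 0.04. The TCA cycle, which takes up the product of glycolysis in mitochondria, had a median of 0.04 over 24 members. Of these, 4 were higher and 0 lower at an unadjusted p under 0.05, beside 5.33% and 5.59% of all genes.

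**Figure D4:**
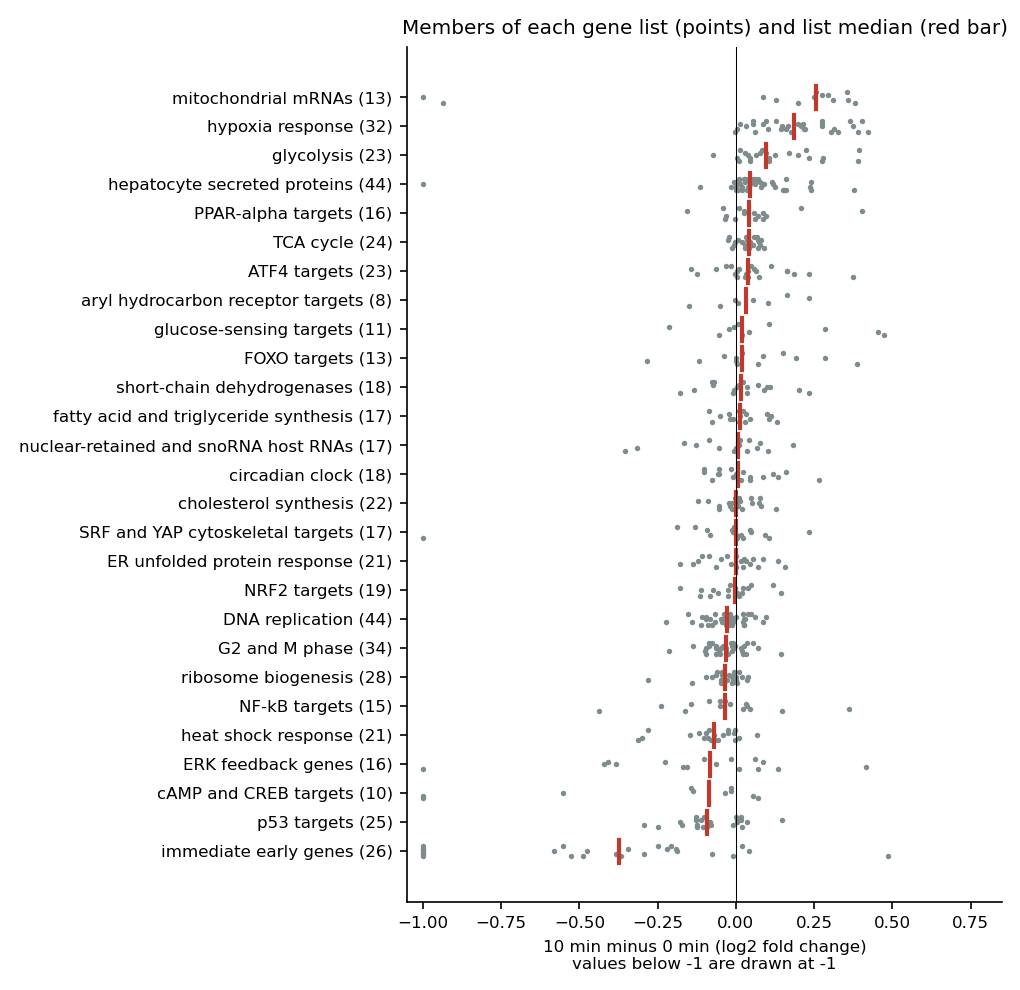
Log2 fold change of 10 min against 0 min for each measured member (grey points) of the lists with at least 8 measured members, number in brackets, and the list median (red bar); values below -1 are drawn at -1, and the lists of cell type markers are left out. Immediate early genes are at the bottom with a median of -0.38, and hypoxia and mitochondrial mRNAs are at the top with 0.19 and 0.26.

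Other single genes were named for a small p and for exposed libraries that all lay above the untreated ones. In its main fit edgeR called none of them. FAXDC2, a gene of the sterol and fatty acid hydroxylase family, was at 28.2, 30.4 and 28.2 CPM untreated and at 38.0, 35.2 and 34.9 CPM at 10 min (0.31 ± 0.05, edgeR adjusted p = 0.081). SLC11A2, the ferrous iron importer gene also known as DMT1, was at 195, 207 and 203 CPM untreated and at 245, 234 and 266 CPM at 10 min (0.30 ± 0.05, edgeR adjusted p = 0.081). In SLC11A2 replicate 2 was the lowest exposed library. SEMA4B, a semaphorin gene, was at 0.24. DESeq2 called FAXDC2, SLC11A2 and SEMA4B higher (adjusted p = 0.000278, 3.78e-07 and 0.00373). With a term for mitochondrial share edgeR called FAXDC2 and SLC11A2 (adjusted p = 0.0236 and 0.0338). SLC11A2 was also called by edgeR without 10 min replicate 2 (adjusted p = 0.0216).

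Apart from early response genes and the readthrough models described below, the lower genes named by the rule were PDRG1, SMLR1, PARD6B, CLK1, ZNF721 and HS3ST3B1. PDRG1, a prefoldin-like gene, was at 32.8, 32.9 and 34.6 CPM untreated and at 27.6, 28.6 and 28.3 CPM at 10 min, a log2 fold change of -0.25. CLK1, a kinase that regulates splicing factors, was at 33.2, 31.4 and 35.0 CPM untreated and at 25.4, 27.5 and 28.3 CPM at 10 min (-0.29). The others were SMLR1 at -0.21, the cell polarity gene PARD6B at -0.39, the zinc finger gene ZNF721 at -0.51 and the heparan sulfate modifying gene HS3ST3B1 at -0.26. The rule required the exposed libraries of these 6 to lie below the untreated ones, so that separation is no result. In its main fit edgeR called none of the 6, while DESeq2 called each of them lower. ZNF721 was also called by edgeR with a term for mitochondrial share and without untreated replicate 1 (adjusted p = 0.0236 and 0.0247).

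Several of these genes fell in the next interval. The comparison of 30 min with 10 min shares the 10 min libraries with the one above, so values are set side by side and no overlap is given. In this interval 29 genes rose (0.163%) and 73 fell (0.411%) over all genes tested. Of the 32 hypoxia genes 13 fell and 0 rose between 10 and 30 min, with a median of -0.31. The number was 24 with DESeq2 and 7 with the 10 and 30 min groups fitted alone or with 10 min replicate 1 or 3 or 30 min replicate 2 or 3 left out. PFKFB4 fell by 0.44 (edgeR adjusted p = 0.0074), and VEGFA, the angiogenic factor gene, which had been at 0.15 at 10 min, fell by 0.59 (edgeR adjusted p = 0.00031). DDIT4 and ADM, at -0.003 and 0.03 at 10 min, fell by 1.35 and 1.02 in this interval.

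Of the other genes named above, HK2 fell by 0.36 between 10 and 30 min (edgeR adjusted p = 0.0016) and FAXDC2 by 0.29 (edgeR adjusted p = 0.017). FOS and FOSB stood at means of 2.94 and 1.12 CPM at 30 min, and their further differences from 10 min were not called. ERRFI1, a feedback inhibitor of the EGF receptor, was at 0.14 at 10 min and fell by 0.60 in the next interval (edgeR adjusted p = 0.00034). Of the immediate early list, IER3 alone was called between 10 and 30 min.

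**Figure D5:**
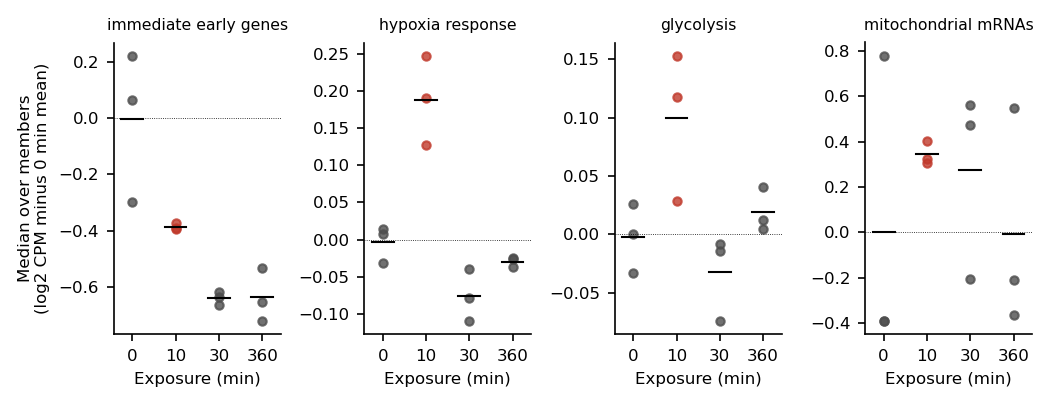
Median over the members of each list of log2 CPM minus the untreated mean, in every library (points; 10 min in red) at 0, 10, 30 and 360 min, with the mean of the 3 libraries as a bar; the vertical scales differ. Hypoxia and glycolysis are highest at 10 min, the immediate early genes are lower at 30 min than at 10 min, and the mitochondrial mRNAs split within groups.

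Stress programmes other than hypoxia lay on the lower side or near zero. Of 21 heat shock genes edgeR called 0, and 19 had a log2 fold change below zero. At an unadjusted p under 0.05, 5 were lower and 0 higher, beside 5.59% and 5.33% of all genes. The list median of -0.07 became 0.004 with replicate 1 as the only untreated library. HSPA1B was at 176, 202 and 211 CPM untreated and between 155 and 162 CPM at 10 min (-0.31), and the near-identical HSPA1A, from which its reads cannot be separated with certainty, was at -0.30. Both were called lower by edgeR without untreated replicate 1 (-0.39 and -0.38, adjusted p = 0.0137 and 0.0116), and both by DESeq2 with all libraries. Of 25 p53 targets edgeR called 0 and DESeq2 called 1 lower, with a median of -0.09. Of these targets 9 were lower and 1 higher at an unadjusted p under 0.05, beside 5.59% and 5.33% of all genes. PHLDA3, an inhibitor of AKT, was at -0.25 and MDM2, the ubiquitin ligase of p53, at -0.12. The ER unfolded protein response, NRF2 and NF-kB lists had medians of 0.001, -0.002 and -0.03 with 0 members called.

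Lists that describe liver function and xenobiotic sensing had medians close to zero, and their counts of calls are edgeR's; DESeq2 called 2 secreted proteins higher and 1 FOXO target in each direction. Of 44 secreted hepatocyte proteins 0 were called and 39 were above zero, with a median of 0.04. At an unadjusted p under 0.05, 8 were higher, beside 5.33% of all genes. APOB, the carrier protein of liver lipoproteins, was at 0.16 and the complement gene C3 at 0.12. The 8 measured targets of the aryl hydrocarbon receptor, which senses planar aromatic compounds, had a median of 0.03 with 0 members past even an unadjusted p of 0.05. PPAR-alpha targets (16 measured, median 0.04), cholesterol synthesis (22, median 0.001) and FOXO targets (13, median 0.02) had 0 members called. In the FOXO list IGFBP1, an insulin-repressed binding protein, was at 157, 163 and 176 CPM untreated and at 222, 182 and 246 CPM at 10 min (0.39), and TRIB1, a pseudokinase of liver lipid control, at -0.29. Growth lists lay slightly below zero: DNA replication at -0.03 over 44 genes, G2 and M phase at -0.03 over 34 and ribosome biogenesis at -0.03 over 28, with 0 called in each; the last 2 medians were above zero when untreated replicate 1 stood alone.

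Messenger RNAs of the mitochondrial genome, which encode subunits of the respiratory chain, followed single libraries more than the groups. Their 13 members had a median of 0.26 with 0 called. The deviation from the untreated mean was 0.78, -0.39 and -0.39 in untreated replicates 1, 2 and 3 and 0.32, 0.40 and 0.31 at 10 min, so untreated replicate 1 was the highest of the 6 libraries and the other two untreated libraries the lowest. The median was -0.40 against replicate 1 alone and 0.67 without it. Of the 13, 2 were below zero. MT-ND6, the only mRNA encoded on the light strand, was at 228, 185 and 183 CPM untreated and at 97.0, 78.2 and 136 CPM at 10 min, without overlap (-0.93, not called by edgeR). MT-ATP8, an ATP synthase subunit gene, was at 928, 134 and 139 CPM untreated and at 158, 231 and 166 CPM at 10 min (-1.11, not called), so its value rests on untreated replicate 1. The share of all counts from the mitochondrial genome was 3.22% ± 1.01 untreated and 3.66% ± 0.179 at 10 min (SD, n = 3), a difference smaller than the untreated spread (two-sided exact permutation p = 0.4, smallest possible 0.1).

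The shift over genes at large was tilted slightly with expression level. The median log2 fold change was -0.02 for genes with a mean log2 CPM under 1, -0.03 from 1 to 3, -0.02 from 3 to 5, 0.003 from 5 to 7 and 0.02 at 7 and over. In the highest class 188 of 1640 genes were higher and 58 lower at an unadjusted p under 0.05. Over all genes the shares at this threshold were 5.33% higher and 5.59% lower, for comparison with this count and those that follow. Among protein-coding genes those with over 10 exons had a median of 0.02, with 436 higher and 163 lower of 4998, and single-exon genes had -0.03, with 22 higher and 48 lower of 452. Pseudogenes lay lower, with a median of -0.08 over 1383. Under total-count scaling the all-gene median was -0.03, the 3 lower classes stayed below zero, and the 2 upper ones went below it, to -0.02 and -0.01; the order of the classes held.

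Gene models that join neighbouring genes had large values with a large spread. For 88 readthrough models the median absolute log2 fold change was 0.36 against 0.08 for all genes, and their median SD between untreated replicates was also larger, at 0.41 against 0.09. HNRNPUL2-BSCL2 was at 47.3, 40.7 and 34.5 CPM untreated and at 15.8, 23.9 and 21.6 CPM at 10 min (-0.99), while BSCL2, the seipin gene within it, was at 7.74, 7.25 and 9.52 CPM untreated and at 19.6, 15.6 and 15.9 CPM at 10 min (1.06). SENP3-EIF4A1 was at -1.13 with SENP3 at 0.38 and EIF4A1 at 0.10. Counts of such pairs depend on how shared reads were assigned, which is not given in the sources used here. In its main fit edgeR called none of these genes. DESeq2 called HNRNPUL2-BSCL2, BSCL2, SENP3-EIF4A1 and SENP3 (adjusted p = 0.00269, 0.0031, 0.00284 and 0.00815). Some edgeR alternatives called HNRNPUL2-BSCL2, BSCL2 or SENP3-EIF4A1, among them the fit with a term for mitochondrial share for HNRNPUL2-BSCL2 and BSCL2. Counts of 0 in one library with at least 100 in another of the same group occurred for 31 genes.

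Depth and identity of the libraries bear on all of the above. Total counts were 37.2 to 66.8 in units of 1e6 at 0 min and 29.8 to 31.5 at 10 min, so every exposed library was shallower, and thinning all libraries to the smallest total left 3 genes called. Distances between libraries, as the SD of log2 differences, were 0.295 to 0.378 within groups and 0.331 to 0.408 between them, which overlap. Summed hepatocyte markers stood at 30550 to 33160 CPM untreated and 33800 to 34320 CPM at 10 min, with 0 of 12 at zero. Of the markers of other cell types, 5 of 8 for fibroblasts, 3 of 7 for endothelium and 4 of 8 for blood cells were at zero in all 6 libraries, among them COL1A2, KDR and PTPRC; the blood list's sum of 1804 to 2026 CPM was almost all LYZ, a lysozyme gene. The part of depth and of mitochondrial share in the differences between single genes was not tested beyond the alternatives given.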

How the data were processed

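Polyadenylated RNA of HepG2 cells was sequenced in 12 libraries, 3 per exposure time. The file deposited by the authors holds read counts, whole numbers, for every gene and library. HISAT2, DESeq2 and GRCh38 are named in the submitters' processing notes; their roles and versions, the counting program, the annotation and strand use were not given in the sources used here. Of 60612 gene identifiers, 96.34% were found in GENCODE release 29 on GRCh38, which gave positions, gene types and exon numbers. Promoter sequences are RefSeq's (GRCh38.p14), matched by symbol.

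Deposited counts were tested with edgeR 4.0.16 in R 4.3.3: filterByExpr by group, TMM scaling and a quasi-likelihood model over all 12 libraries with 8 residual degrees of freedom and a biological coefficient of variation of 9.72%. Adjusted p-values are Benjamini-Hochberg values of this two-sided test over the 17779 genes, and a gene was called under 0.05. Where an alternative is named, the adjusted p-value comes from its own fit and its own set of genes. SE is the absolute log2 fold change divided by the square root of F. A count of 3, the floor below which a 0 says little, equals 0.0449 to 0.101 CPM in the 6 libraries and covers counting error only. Deviations by library use log2 CPM with a prior count of 2. The fit was tested on simulated data.

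The libraries, the 31 gene lists and the rule for named genes were chosen with earlier results of these data known, so lists are described by counts and medians and get no test. Named genes are those called, then the 12 with the smallest p in each direction among genes whose mean log2 CPM reached 1 with no overlap between groups, then up to 5 members of a list by p, and the AP-1 and EGR genes. Further list members (among them DDIT4, ADM, SLC2A1, MYC, SRF, KLF10, CCN1, PPP1R15A, PKM, ALDOA, VEGFA, ERRFI1, ARRDC4 and the sensor genes) were named after their values were seen. Some genes that meet the rule are not reported here. Alternatives were DESeq2 1.42.0, limma 3.58.1 voom, other scalings and filters, the 2 groups alone, a replicate block, a term for mitochondrial share, thinning, and the omission of libraries; those for 30 min against 10 min were added after seeing the data.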

Additional observations from a re-analysis of the deposited data

How the results depend on the processing

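The count of 3 genes called at 10 min stayed at 3 with limma voom, RLE or total-count scaling, the stricter filter, thinning and without mitochondrial genes. It became 174 with DESeq2, 9 without a filter, 7 with the 2 groups alone, 11 with a term for mitochondrial share, 10 with untreated replicate 1 as the lone untreated library (none of the 3 among them), 1 at an adjusted p under 0.01 and 5 under 0.1. Leaving out 1 library gave 1 to 25 genes: 25 without untreated replicate 1, 13 without 10 min replicate 2 and 1, TXNIP, without 10 min replicate 1. A replicate block gave 6 genes, the 3 among them; same-numbered libraries correlated by 0.204, 0.036 and 0.05 in their deviations, so the numbers were not taken as pairs. The difference in mitochondrial share was 0.134 to 1.02 percentage points when 1 library was left out. For 30 min against 10 min, the 102 genes became 290 with DESeq2 and 39 to 83 when 1 library was left out. Of 495 list medians over 31 lists and 16 alternatives, 414 moved by less than the spread between the 10 min libraries. The cause of these differences was not tested. The 10 min libraries held 29.8 to 31.5 counts (1e6), fewer than any untreated library, and this sets the counting error of low genes.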
